A study of Mus musculus with 3 samples.

Results

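The genes described here are 52 genes of DNA replication, of which 4 regulate entry into S phase or the inheritance of chromatin marks. The others are the factors that license and fire replication origins, the enzymes that copy DNA and the enzymes that make its building blocks. All 52 were chosen by symbol, and a gene was taken where a row of the deposited expression table carried its symbol alone. By this rule 51 of the 52 were found among 24401 loci, and all 51 had a mean of 1 FPKM or more over the 3 libraries, as did 11858 loci in all. Orc1 was the member nearest to that limit, with a mean of 1.60 FPKM. Mcm6 has no row of its own, because the authors' table merges it with its neighbour Dars at chromosome 1, positions 128331591 to 128417416, and that merged row, at 124 FPKM with resveratrol, 122 FPKM in conditioned media and 126 FPKM in control, cannot be read as Mcm6. FPKM is a number of sequenced fragments scaled to the length of the transcript and to the size of the library, so levels of different genes can be compared.

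RNA was sequenced from C2C12, a single mouse myoblast line that fuses into myotubes in culture. In all groups the cells had been grown to confluence with 10% fetal bovine serum and differentiated for 72 hours in DMEM holding 2% horse serum and 1 µg/ml insulin. The first group then received, for 24 hours, medium conditioned by S2-013 cells together with 50 µM resveratrol, a plant polyphenol. The second received the conditioned medium alone, and the control received DMEM. S2-013 is a human pancreatic cancer line, and its medium had been conditioned for 24 hours. Whether the DMEM and the conditioned medium held serum, which solvent carried resveratrol and how many cells were lysed is not stated in the labels. No library with resveratrol alone was analysed here. Each group is 1 library, so no difference below has a replicate check, and neither an SD nor a p-value of the conditions can be given. The depth of the libraries is unknown, since FPKM keeps no count. In bulk RNA, fewer cells of a type and less RNA per cell cannot be told apart.

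Replication is prepared in G1 phase, when the origin recognition complex, Cdc6 and Cdt1 load rings of the MCM helicase onto origins, a step called licensing. In S phase, kinases recruit Cdc45 and the GINS complex to the rings, the helicase opens the DNA, and polymerases copy it behind a sliding clamp. Transcription factors of the E2F family are known to drive many of these genes in late G1. Myoblasts leave the cell cycle when they fuse, and a part of a C2C12 culture stays as single, undifferentiated reserve cells.

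The cells are labelled as myoblasts, and the libraries hold the transcripts of differentiated muscle. All 13 myotube markers that were found stood above 1 FPKM on average, with sums of 4618 FPKM with resveratrol, 3204 FPKM in conditioned media and 3430 FPKM in control. Acta1 alone held 2272.5 FPKM of the sum with resveratrol. Of the 13, 8 were highest with resveratrol and 3, Ckm, Tnnt1 and Ttn, were lowest there. The authors' deposited table calls these 3 lower with resveratrol over conditioned media and over control, and 9 and 6 of the 13 higher. Myog, a transcription factor of muscle differentiation, stood at 596 FPKM with resveratrol, 313 FPKM in conditioned media and 384 FPKM in control. Ckm stood at 43.2 FPKM with resveratrol, 56.3 FPKM in conditioned media and 60.8 FPKM in control. Of 9 markers of satellite and reserve cells, 7 reached a mean of 1 FPKM and Calcr is listed at 0 in the 3 libraries, and the 9 summed to 327 FPKM with resveratrol, 271 FPKM in conditioned media and 215 FPKM in control. Within them, Pax7 and Myf5, which mark undifferentiated myogenic cells, were lowest with resveratrol, Pax7 at 0.271 FPKM with resveratrol, 0.699 FPKM in conditioned media and 1.04 FPKM in control and Myf5 at 2.69 FPKM with resveratrol, 9.23 FPKM in conditioned media and 10.9 FPKM in control. Pax7 lay below 1 FPKM on average and the authors' deposited table did not test it. Vcam1 and Sdc4, surface proteins of the same list, were highest with resveratrol, Vcam1 at 78.0 FPKM with resveratrol, 49.2 FPKM in conditioned media and 42.6 FPKM in control and Sdc4 at 174 FPKM with resveratrol, 117 FPKM in conditioned media and 80.6 FPKM in control. Of the 7 markers with a mean of 1 FPKM or more, 4 were lowest and 2 highest with resveratrol. The part that a different number of such cells has in the results below was not tested. The 7 fibroblast markers summed to 1175 FPKM with resveratrol, 2117 FPKM in conditioned media and 1838 FPKM in control, nearly all of it collagen. Immune markers summed to 2.48 FPKM with resveratrol, 2.30 FPKM in conditioned media and 1.39 FPKM in control, with Ptprc and Adgre1 at 0 in the 3 libraries. Epithelial markers summed to 1.42 FPKM with resveratrol, 3.26 FPKM in conditioned media and 2.15 FPKM in control, most of it Krt19, and Krt18 was at 0 in each. These are mouse loci, and whether any reads of human S2-013 RNA were placed there was not tested. Endothelial and adipocyte markers each summed to less than 1 FPKM in every library.

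E2F sites near the start are known from many replication genes, and the promoters of a few members are shown because the results below turn on these genes. RefSeq's promoter table for GRCm38.p6, the build that mm10 names, holds a window of 250 bases before to 50 bases after the start for 42 of the 51 members. Each window was searched on both strands for 4 words of the E2F site, TTTGGCGC, TTTCCCGC, TTTCGCGC and TTTGCCGC, of which neighbouring matches may overlap. Orc1 (chr4:108579284-108579453, plus strand), Cdc6 (chr11:98907981-98908150, plus strand), Mcm5 (chr8:75109339-75109508, plus strand) and Pola1 (chrX:93632156-93632325, minus strand) hold such a word, Tk1 (chr11:117826015-117826184, minus strand) holds none, and Ube2c (chr2:164769759-164769928, plus strand) is a G2/M gene set beside them. The 170 bases before each start are printed 5′ to 3′, with E2F words in capitals and, in Ube2c alone, the CHR word TTTGAA of G2/M promoters in capitals, here on the other strand.
Orc1: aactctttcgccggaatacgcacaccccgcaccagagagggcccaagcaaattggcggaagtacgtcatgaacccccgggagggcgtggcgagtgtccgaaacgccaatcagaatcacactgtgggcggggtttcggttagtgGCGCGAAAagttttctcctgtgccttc
Cdc6: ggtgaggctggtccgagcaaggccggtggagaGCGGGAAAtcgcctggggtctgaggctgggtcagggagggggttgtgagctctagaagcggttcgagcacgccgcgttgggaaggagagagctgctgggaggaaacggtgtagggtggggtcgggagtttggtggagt
Mcm5: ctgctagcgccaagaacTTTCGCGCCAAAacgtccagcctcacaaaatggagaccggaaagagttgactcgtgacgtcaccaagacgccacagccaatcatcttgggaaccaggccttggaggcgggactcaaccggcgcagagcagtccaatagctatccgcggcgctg
Pola1: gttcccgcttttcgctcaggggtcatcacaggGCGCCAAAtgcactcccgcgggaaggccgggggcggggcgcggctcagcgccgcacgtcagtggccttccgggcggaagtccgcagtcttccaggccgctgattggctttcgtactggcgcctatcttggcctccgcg
Tk1: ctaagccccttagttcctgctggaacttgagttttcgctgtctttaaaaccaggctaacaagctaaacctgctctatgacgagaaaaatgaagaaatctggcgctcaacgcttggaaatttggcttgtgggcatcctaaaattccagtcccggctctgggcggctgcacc
Ube2c: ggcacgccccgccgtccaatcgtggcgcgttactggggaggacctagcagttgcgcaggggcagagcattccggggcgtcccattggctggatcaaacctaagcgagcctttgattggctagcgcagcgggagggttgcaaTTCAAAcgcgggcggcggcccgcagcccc

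In Orc1 the word begins 27 bases before the start, in Cdc6 and in Pola1 138 bases before it, and in Mcm5 a pair of overlapping words begins 153 and 149 bases before it. An E2F word was found in 15 of the 42 members with a window (35.7%), in 1 of 32 G2/M genes (3.13%), in 4.82% of the genes with a mean of 1 FPKM or more and in 2.61% of all 27025 genes in the table. The words were most frequent among the loading factors and the MCM helicase, with 2 of 2 and 3 of 4 genes, followed by the polymerases with 4 of 7, and none of the 5 genes of nucleotide supply held one. The CHR word was distributed differently, with 7 of 42 members (16.7%) and 23 of 32 G2/M genes (71.9%). It was found in 13.8% of the genes with a mean of 1 FPKM or more and in 20.2% of all genes. The CCAAT word was found in 54.8% of members, 75.0% of G2/M genes, 43.3% of genes with a mean of 1 FPKM or more and 41.1% of all genes. A match is a description of the letters and does not show that a factor binds, and a window without one does not show the reverse.

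**Figure D1:**
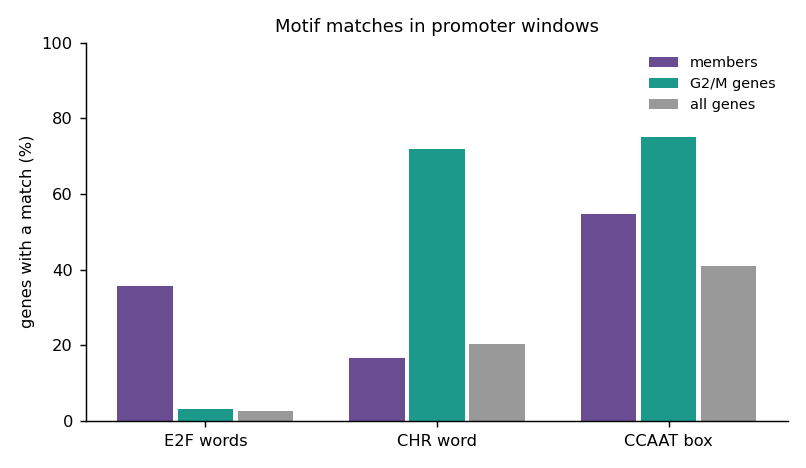
Percentage of genes with a RefSeq promoter window that hold an E2F word, the CHR word or CCAAT, on the vertical axis, for the members (n = 42), the G2/M genes (n = 32) and all genes (n = 27025). E2F words stand at 35.7% of members against 2.61% of all genes, and the CHR word at 71.9% of G2/M genes against 20.2%.

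The first comparison asks how myotubes in the conditioned medium of pancreatic cancer cells differed from myotubes in DMEM. Replication genes were lower in conditioned media, by a modest amount and across most roles. The median log2 ratio of the members was -0.45, against -0.01 over all loci with a mean of 1 FPKM or more. All ratios were taken after adding 1 to each FPKM, so differences between low values come out smaller than they are. Of the 51 members, 44 had a ratio below 0, where 51.3% of all loci did, and 26 lay below -0.43, the 10th percentile of all loci, with 0 above the 90th percentile of 0.49. A ratio of -1 or less, called the size rule here, was met by 2 members, Cdc6 and Mcm5, and by 0.751% of all loci. A ratio of 1 or more was met by 0 members and by 1.98% of all loci. The authors' deposited table, which compares these libraries and not the conditions, calls 36 members lower, 0 higher and 15 not different, where it calls 29.9% of the loci it tested lower and 25.8% higher. The summed level of the members was 684 FPKM in conditioned media against 922 FPKM in control.

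The second comparison asks how myotubes given resveratrol in the conditioned medium differed from those in conditioned medium alone, and there the members lay near the background. The median log2 ratio of resveratrol in conditioned media over conditioned media was -0.06, against 0.03 over all loci, and 29 of 51 members lay below 0, where 47.4% of all loci did. The size rule was met by 1 member on the lower side, Tk1, against 4.97% of all loci, and by 0 members on the higher side, against 1.53%. The authors' deposited table calls 13 members lower, 13 higher and 25 not different, among them Orc1, which it did not test. Its shares of all tested loci are 29.5% lower and 34.1% higher, so members were called no more often than all loci in either direction. In this comparison 3 members lay below the 10th percentile of all loci and 2 above the 90th. The 13 called lower in the authors' deposited table include the 5 genes of nucleotide supply and both genes of Okazaki fragment processing, and the 13 called higher include 2 MCM subunits, both primase subunits, 2 RPA subunits and Pcna. The summed level was 684 FPKM in both libraries.

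Set against control directly, the resveratrol library was lower for most members. The median log2 ratio was -0.49, against 0.00 over all loci, and 43 of 51 members lay below 0, where 49.9% of all loci did. The size rule was met on the lower side by 6 members, Mcm5, Fen1, Rrm1, Tk1, Ccne2 and Uhrf1, against 5.25% of all loci, and on the higher side by 0 members against 3.6%. The authors' deposited table calls 36 members lower and 4 higher, Orc6, Gins4, Rfc1 and E2f1, where its background is 34.1% in the lower direction and 34.1% in the higher. The 3 comparisons share libraries, so their ratios are given side by side and not as separate evidence. Across the 3 libraries, 39 members were highest in control, where 34.2% of all loci were. The lowest value lay in the resveratrol library for 28 members, in the conditioned media library for 20 and in control for 3, where the shares of all loci are 37.1%, 29.9% and 32.9%.

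**Figure D2:**
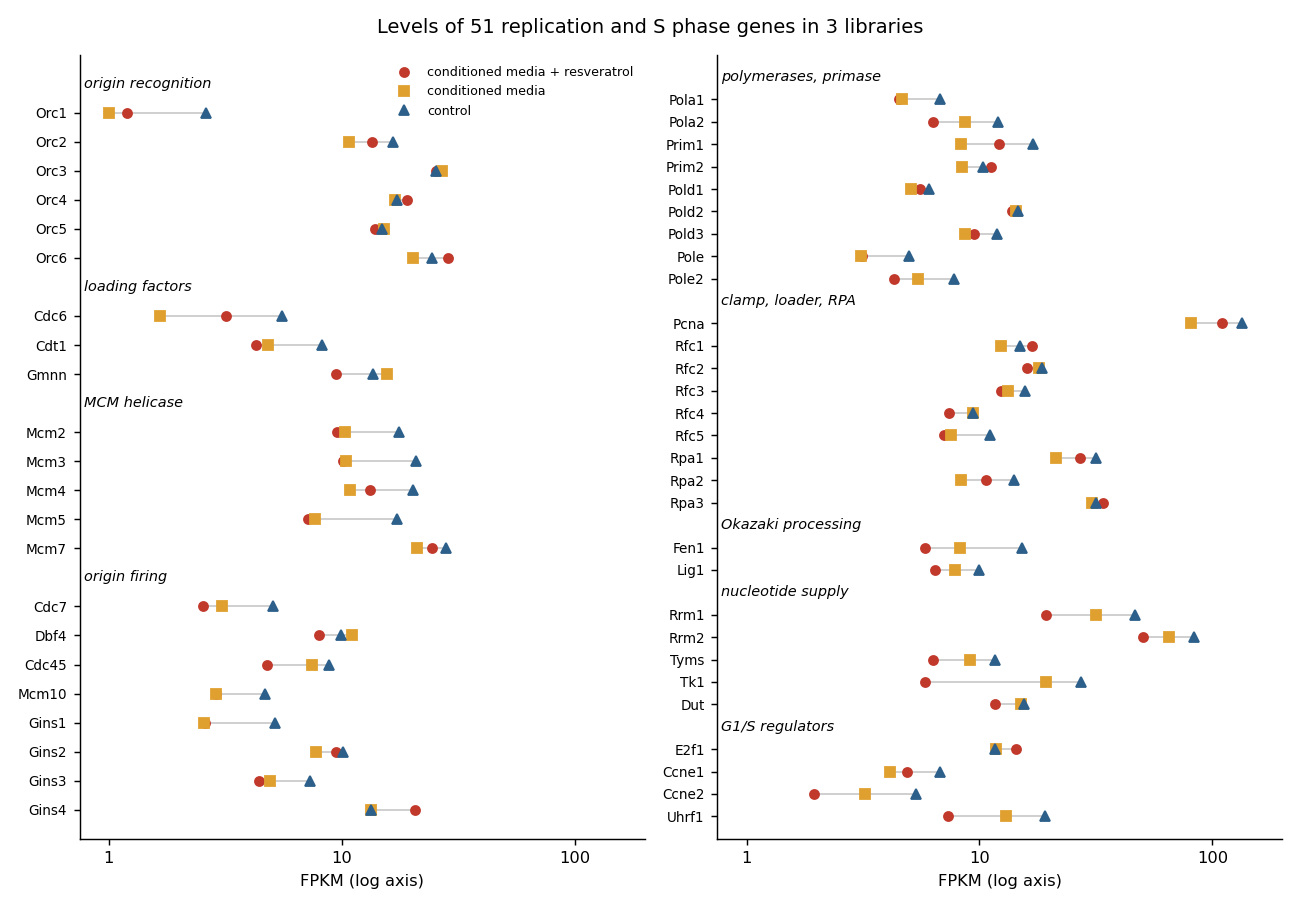
FPKM on a log axis of the 51 members in the resveratrol (circle), conditioned media (square) and control (triangle) libraries, 1 library each, grouped by role. The control value is the highest of the 3 in 39 members, with Pcna at 134 FPKM in control at the upper end and Orc1 near 1 FPKM in both other libraries at the lower end.

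The origin recognition complex, which binds origins and is the platform for licensing, was lower in conditioned media mainly in its Orc1 and Orc2 subunits. Orc1, the ATPase subunit that varies with the cell cycle, stood at 1.20 FPKM with resveratrol, against 0.998 FPKM in conditioned media and 2.61 FPKM in control, a log2 ratio of -0.85 for conditioned media over control, the lowest of the 6 subunits, and of -0.71 for resveratrol over control. Orc2 stood at 13.4 FPKM with resveratrol, 10.8 FPKM in conditioned media and 16.7 FPKM in control. In both genes the conditioned media library was the lowest and the control the highest. Orc3 was nearly level at 25.5 FPKM with resveratrol, 27.1 FPKM in conditioned media and 25.3 FPKM in control, and its ratio of 0.10 in conditioned media was the highest of the 6. Orc4 stood at 19.1 FPKM with resveratrol, 16.9 FPKM in conditioned media and 17.2 FPKM in control. Orc5 stood at 13.9 FPKM with resveratrol, 15.2 FPKM in conditioned media and 15.0 FPKM in control, and its log2 ratio of -0.12 for resveratrol over conditioned media was the lowest of the complex. These 3 subunits are called in no comparison by the authors' deposited table. Orc6, the smallest subunit, stood at 28.6 FPKM with resveratrol, 20.2 FPKM in conditioned media and 24.4 FPKM in control, with log2 ratios of 0.48 over conditioned media and 0.22 over control, the highest of the complex in both. The median ratio of the complex was -0.14 in conditioned media over control and -0.04 with resveratrol over control, and both turn positive, to 0.05 and 0.14, when libraries are rescaled to equal sums over all loci. All 6 loci share their span with another locus, so some reads may have been divided between them.

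The factors that load the helicase had the single lowest ratio in conditioned media. Cdc6 (chromosome 11, positions 98907751 to 98923942), the ATPase that brings the helicase to the origin complex, stood at 3.19 FPKM with resveratrol, against 1.66 FPKM in conditioned media and 5.53 FPKM in control. In conditioned media it was at 29.99% of its control level, a log2 ratio of -1.30, and with resveratrol it was at 193% of the conditioned media level, a log2 ratio of 0.66, the highest of all members. The authors' deposited table calls it lower in conditioned media with a q-value of 0.000148, and higher with resveratrol over conditioned media with a q-value of 0.00396. Cdt1, which escorts the helicase to the origin, stood at 4.30 FPKM with resveratrol, 4.80 FPKM in conditioned media and 8.25 FPKM in control, with a log2 ratio of -0.80 for resveratrol over control. Gmnn, or geminin, the inhibitor of Cdt1 in S and G2 phase, was not lower in conditioned media, at 9.40 FPKM with resveratrol, 15.6 FPKM in conditioned media and 13.6 FPKM in control. Its log2 ratio was 0.19 in conditioned media over control, the highest of all members, and -0.67 for resveratrol over conditioned media and -0.49 for resveratrol over control.

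The MCM helicase, a ring of 6 subunits that unwinds the DNA, was lower in both conditioned media libraries for each of the 5 subunits found. Its median log2 ratio was -0.84 in conditioned media and -0.83 with resveratrol, both over control, the lowest role in conditioned media, and -0.05 for resveratrol over conditioned media. Mcm2 stood at 9.55 FPKM with resveratrol, 10.4 FPKM in conditioned media and 17.7 FPKM in control. Mcm3 stood at 10.1 FPKM with resveratrol, 10.5 FPKM in conditioned media and 20.8 FPKM in control. Mcm4 stood at 13.2 FPKM with resveratrol, 10.9 FPKM in conditioned media and 20.2 FPKM in control. For Mcm2 and Mcm3 both conditioned media libraries lay close to each other and well below the control, and their ratio of resveratrol over conditioned media was lowest in Mcm2, at -0.11, and highest in Mcm4, at 0.26. Mcm5 (chromosome 8, positions 75109509 to 75128439) stood at 7.20 FPKM with resveratrol, against 7.70 FPKM in conditioned media and 17.3 FPKM in control, with log2 ratios of -1.07 for conditioned media over control and -1.16 for resveratrol over control. The authors' deposited table gives both of these a q-value of 0.000148, and for resveratrol over conditioned media, at -0.09, a q-value of 0.412. Mcm7 was the least different subunit, at 24.3 FPKM with resveratrol, 21.1 FPKM in conditioned media and 28.1 FPKM in control, with log2 ratios of -0.40 for conditioned media and -0.20 for resveratrol, over control. Its locus shares a span with 3 others and holds the small RNA genes Mir106b, Mir25 and Mir93, whose reads its value may include. The subunits assemble in equal numbers, and their levels spread differently in each library: the highest subunit, Mcm7, was 3.38 times the lowest, Mcm5, with resveratrol, 2.74 times in conditioned media and 1.62 times in control.

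Of the 8 genes that fire licensed origins, 4 were called lower in conditioned media by the authors' deposited table, Cdc7, Mcm10, Gins1 and Gins3, where 29.9% of all tested loci were. Cdc7, the kinase that acts on the MCM ring, stood at 2.54 FPKM with resveratrol, 3.05 FPKM in conditioned media and 5.07 FPKM in control. Dbf4, its activating subunit, stood at 7.96 FPKM with resveratrol, 11.1 FPKM in conditioned media and 9.96 FPKM in control, with the highest conditioned media ratio of the role, 0.14. The kinase and its partner thus had different orders, with Cdc7 highest in control and Dbf4 highest in conditioned media. The authors' deposited table does not call Dbf4 different between conditioned media and control. Cdc45, a part of the active helicase, stood at 4.80 FPKM with resveratrol, 7.48 FPKM in conditioned media and 8.85 FPKM in control, with a log2 ratio of -0.55 for resveratrol over conditioned media. Mcm10, which helps to activate the helicase, stood at 2.89 FPKM with resveratrol, 2.90 FPKM in conditioned media and 4.68 FPKM in control. The 4 GINS subunits, which complete the active helicase, did not share a pattern. Gins1 stood at 2.58 FPKM with resveratrol, 2.57 FPKM in conditioned media and 5.18 FPKM in control, with ratios over control of -0.79 in conditioned media and -0.79 with resveratrol. Gins2, whose locus spans neighbouring genes, stood at 9.44 FPKM with resveratrol, 7.78 FPKM in conditioned media and 10.2 FPKM in control. Gins3 stood at 4.40 FPKM with resveratrol, 4.93 FPKM in conditioned media and 7.34 FPKM in control. Gins1 and Gins3 were thus highest in control, as was Gins2 by less. Gins4 alone was level in conditioned media and highest with resveratrol, at 20.6 FPKM with resveratrol, 13.4 FPKM in conditioned media and 13.4 FPKM in control, a log2 ratio of 0.59 over conditioned media and of 0.59 over control, the highest of all members there. The authors' deposited table calls Gins4 higher with resveratrol in both comparisons with a q-value of 0.000148.

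The polymerases and primase were lower in conditioned media in 9 of 9 genes, with a median log2 ratio of -0.42 and 8 called lower by the authors' deposited table, where 29.9% of all tested loci were. Pold2 lies near 0 and turns positive when libraries are rescaled over all loci. Pola1, the catalytic subunit of polymerase alpha, stood at 4.54 FPKM with resveratrol, 4.67 FPKM in conditioned media and 6.80 FPKM in control. Pola2, its regulatory subunit, stood at 6.31 FPKM with resveratrol, 8.71 FPKM in conditioned media and 12.0 FPKM in control, with log2 ratios of -0.41 for resveratrol over conditioned media and -0.83 for resveratrol over control, the lowest of the role in both. Prim1, the catalytic primase subunit that makes the RNA primers, stood at 12.1 FPKM with resveratrol, 8.32 FPKM in conditioned media and 17.0 FPKM in control. It had the lowest conditioned media ratio of the role, -0.95, and the highest for resveratrol over conditioned media, 0.49. Prim2, the large primase subunit, stood at 11.2 FPKM with resveratrol, 8.43 FPKM in conditioned media and 10.4 FPKM in control, a log2 ratio of 0.09 for resveratrol over control. Both primase genes thus had their lowest value in conditioned media, while Pola2 had it with resveratrol. Polymerase delta, which copies the lagging strand, differed by subunit. Its catalytic subunit Pold1 stood at 5.55 FPKM with resveratrol, 5.06 FPKM in conditioned media and 6.07 FPKM in control. Pold2 stood at 13.8 FPKM with resveratrol, 14.4 FPKM in conditioned media and 14.6 FPKM in control, with a log2 ratio of -0.02 in conditioned media. Pold3 stood at 9.43 FPKM with resveratrol, 8.71 FPKM in conditioned media and 11.9 FPKM in control. Of these 3, Pold1 and Pold3 are called lower in conditioned media by the authors' deposited table and Pold2 is not called. Polymerase epsilon, which copies the leading strand, was lower in both conditioned media libraries. Its catalytic subunit Pole stood at 3.15 FPKM with resveratrol, 3.09 FPKM in conditioned media and 5.00 FPKM in control, and Pole2 stood at 4.30 FPKM with resveratrol, 5.42 FPKM in conditioned media and 7.80 FPKM in control. The median ratio of resveratrol over conditioned media for the role was 0.02, and -0.03 when libraries are rescaled over loci longer than 200 bases.

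Pcna, the sliding clamp that holds polymerases on DNA, was the most abundant member. It stood at 110.0 FPKM with resveratrol, against 81.2 FPKM in conditioned media and 134 FPKM in control, with a log2 ratio of -0.72 in conditioned media, the lowest of the clamp, loader and RPA genes, although without the added 1 Rpa2 was lower, at 59.2% of control against 60.4% for Pcna. Its ratio was 0.43 for resveratrol over conditioned media, the highest of them. The clamp loader, replication factor C, differed by subunit. Rfc1, the large subunit, stood at 16.8 FPKM with resveratrol, 12.4 FPKM in conditioned media and 15.0 FPKM in control, with the highest ratio of the role for resveratrol over control, 0.16. Rfc2 stood at 16.0 FPKM with resveratrol, 18.1 FPKM in conditioned media and 18.5 FPKM in control. Rfc3 stood at 12.4 FPKM with resveratrol, 13.3 FPKM in conditioned media and 15.7 FPKM in control. Neither Rfc2 nor Rfc3 was called in conditioned media by the authors' deposited table. Rfc4, whose locus shares its span with 3 others, stood at 7.43 FPKM with resveratrol, 9.42 FPKM in conditioned media and 9.36 FPKM in control, with log2 ratios of 0.01 for conditioned media over control and -0.31 for resveratrol over conditioned media. Rfc5 stood at 7.02 FPKM with resveratrol, 7.54 FPKM in conditioned media and 11.1 FPKM in control, a ratio of -0.60 for resveratrol over control. Only in Rfc1 was resveratrol the highest library, and in the other 4 it was the lowest. RPA coats single-stranded DNA, and its large subunit Rpa1 stood at 27.0 FPKM with resveratrol, 21.2 FPKM in conditioned media and 31.7 FPKM in control. Rpa2 stood at 10.7 FPKM with resveratrol, 8.32 FPKM in conditioned media and 14.0 FPKM in control. Both were lowest in conditioned media, and the authors' deposited table calls both lower in conditioned media over control and higher with resveratrol over conditioned media. Rpa3, the small subunit, was nearly level at 34.0 FPKM with resveratrol, 30.3 FPKM in conditioned media and 31.8 FPKM in control.

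The enzymes that finish Okazaki fragments, the short pieces of the lagging strand, were lowest with resveratrol. Fen1 (chromosome 19, positions 10199132 to 10203943), the nuclease that trims the flaps between fragments, stood at 5.82 FPKM with resveratrol, against 8.24 FPKM in conditioned media and 15.2 FPKM in control. Its log2 ratios were -0.81 for conditioned media over control, -0.44 for resveratrol over conditioned media and -1.25 for resveratrol over control. Lig1, the ligase that joins the fragments, stood at 6.44 FPKM with resveratrol, 7.88 FPKM in conditioned media and 9.93 FPKM in control, with ratios of -0.30, -0.25 and -0.55 for the same comparisons. Both genes are called lower in each comparison by the authors' deposited table.

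The genes of nucleotide supply differed from the helicase genes in which step was larger. Each of the 5 was lowest with resveratrol, and the median log2 ratio was -0.35 for conditioned media over control, -0.47 for resveratrol over conditioned media and -0.79 for resveratrol over control. Tk1 (chromosome 11, positions 117815519 to 117839908), the thymidine kinase of the salvage pathway, stood at 5.83 FPKM with resveratrol, against 19.2 FPKM in conditioned media and 27.4 FPKM in control. With resveratrol it was at 30.3% of the conditioned media level and 21.3% of the control level, log2 ratios of -1.57 and -2.06, the lowest of all members in both. The authors' deposited table gives both a q-value of 0.000148, and the locus shares its span with another. Rrm1 (chromosome 7, positions 102441695 to 102469771), the large subunit of ribonucleotide reductase, which makes deoxyribonucleotides, stood at 19.3 FPKM with resveratrol, against 31.8 FPKM in conditioned media and 46.3 FPKM in control. Its log2 ratio was -0.53 for conditioned media over control, the lowest of the 5, and -1.22 for resveratrol over control. Rrm2, the small subunit made in S phase, stood at 50.6 FPKM with resveratrol, 64.9 FPKM in conditioned media and 83.0 FPKM in control, with the highest ratio of the 5 for resveratrol over conditioned media, -0.35. Tyms, thymidylate synthase, stood at 6.29 FPKM with resveratrol, 9.12 FPKM in conditioned media and 11.6 FPKM in control. Dut, which removes dUTP, stood at 11.6 FPKM with resveratrol, 15.1 FPKM in conditioned media and 15.5 FPKM in control, and its ratio of -0.03 in conditioned media turns positive when libraries are rescaled over all loci. In 4 of the 5 the order was the same, with control highest, conditioned media between and resveratrol lowest by a clear step, and in Dut conditioned media and control were level.

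The 4 regulators of S phase entry and inheritance of chromatin marks divided. E2f1, a transcription factor that drives many of the members, was level in conditioned media and highest with resveratrol, at 14.3 FPKM with resveratrol, 11.7 FPKM in conditioned media and 11.7 FPKM in control, a log2 ratio of 0.00 for conditioned media over control and of 0.27 and 0.27 for resveratrol over conditioned media and over control. Cyclin E activates the kinase that starts S phase. Its gene Ccne1 stood at 4.88 FPKM with resveratrol, 4.11 FPKM in conditioned media and 6.78 FPKM in control, with a conditioned media ratio of -0.60, close to the -0.59 of Ccne2. Ccne2, the other cyclin E gene, stood at 1.96 FPKM with resveratrol, against 3.23 FPKM in conditioned media and 5.35 FPKM in control, a log2 ratio of -1.10 for resveratrol over control. The cyclin E genes thus shared a lower level in conditioned media and differed with resveratrol, where Ccne1 was above and Ccne2 below its conditioned media level. Uhrf1 (chromosome 17, positions 56303337 to 56323486), which recruits the maintenance DNA methyltransferase to newly copied DNA, stood at 7.33 FPKM with resveratrol, against 13.0 FPKM in conditioned media and 19.1 FPKM in control. Its log2 ratio was -0.75 for resveratrol over conditioned media and -1.27 for resveratrol over control, the lowest of the role in both, although without the added 1 Ccne2 was lower in the second, at 36.5% of control against 38.4% for Uhrf1.

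**Figure D3:**
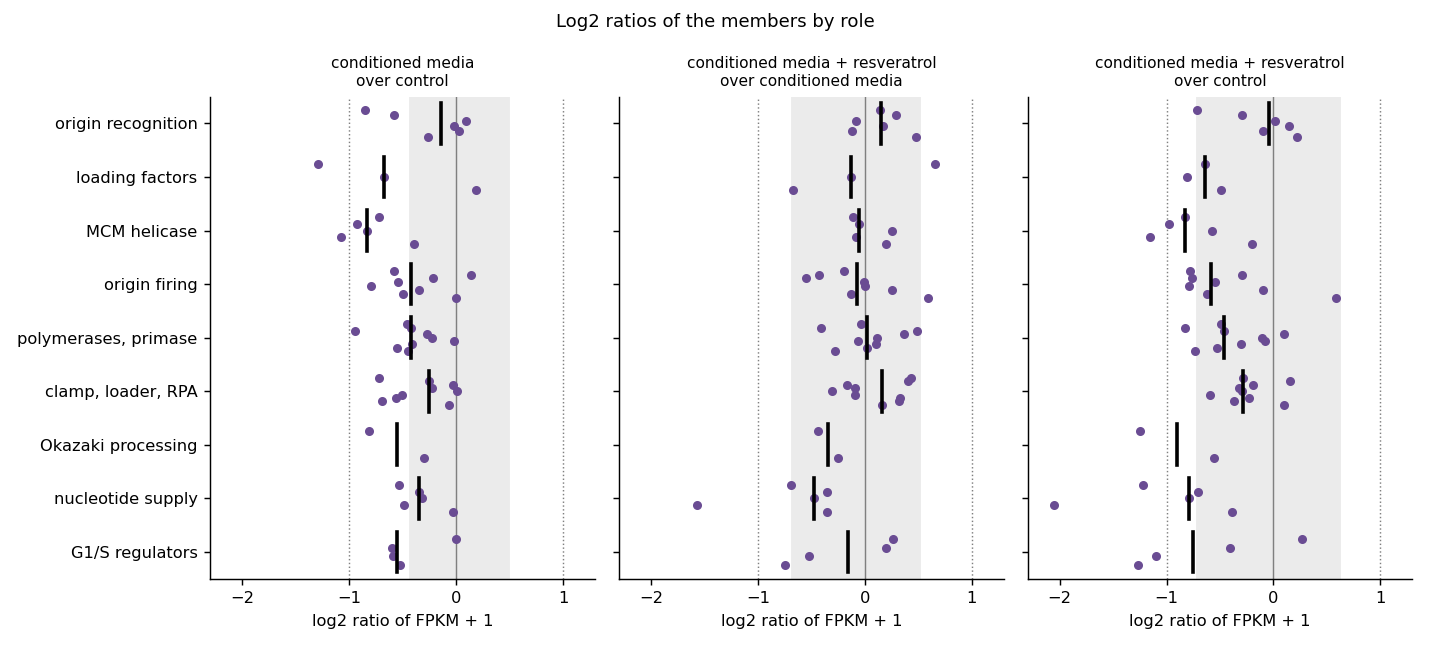
Log2 ratios of FPKM + 1 of the 51 members (points) by role, with the role's median (bar), for conditioned media over control, resveratrol in conditioned media over conditioned media, and resveratrol in conditioned media over control. The grey band spans the 10th to 90th percentile of all 11858 loci and dotted lines mark -1 and 1. The MCM helicase has a median of -0.84 in the first panel and -0.05 in the second, and nucleotide supply -0.35 and -0.47.

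The members were also divided by the words in their windows. In conditioned media over control the median log2 ratio was -0.46 over the 15 members with an E2F word, 14 of them below 0, and -0.42 over the 27 without, 23 of them below 0. For resveratrol over conditioned media the medians were -0.08 with a word and -0.09 without, and for resveratrol over control -0.63 with and -0.39 without. For the CHR word, held by 7 members, the medians were -0.49 with and -0.45 without in conditioned media over control, -0.19 with and -0.03 without for resveratrol over conditioned media, and -0.76 with and -0.40 without for resveratrol over control. All 7 lay below 0 in both resveratrol comparisons, as did 19 and 29 of the 35 without. For the CCAAT word, held by 23 members, the medians in conditioned media over control were -0.52 with and -0.41 without. All 23 lay below 0 there, as did 14 of the 19 without. For resveratrol over conditioned media the medians were -0.005 with and -0.19 without, with 12 and 14 members below 0. For resveratrol over control they were -0.46 with and -0.55 without, with 19 and 17 below 0. For each word the ranges with and without overlapped in each comparison.

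Other genes of replication, of nucleotide supply and of the control of S phase, including inhibitors of cyclin-dependent kinases, were read from 5 lists of 84 genes. Of these, 80 were found and 79 had a mean of 1 FPKM or more. Their median log2 ratios were -0.30 for conditioned media over control, -0.12 for resveratrol over conditioned media and -0.44 for resveratrol over control, and 65 genes lay below 0 in the first, 43 in the second and 62 in the third, where 51.3%, 47.4% and 49.9% of all loci did. By the size rule 3 were lower and 1 higher in conditioned media, 4 lower and 0 higher with resveratrol over conditioned media, and 12 lower and 1 higher with resveratrol over control. Over all loci the rule was met in those comparisons by 0.751%, 4.97% and 5.25% on the lower side and by 1.98%, 1.53% and 3.6% on the higher side. When libraries are rescaled to equal sums over all loci, the conditioned media median becomes -0.11. Under that rescaling 51 of the 79 lie below 0 in conditioned media and 0 meet the size rule on the lower side. The authors' deposited table calls 49 lower and 8 higher in conditioned media, 32 lower and 20 higher with resveratrol over conditioned media, and 49 lower and 9 higher with resveratrol over control. Its shares of all tested loci are 29.9% lower and 25.8% higher in the first, 29.5% and 34.1% in the second and 34.1% and 34.1% in the third, so for resveratrol over conditioned media the list lay nearer to the background than in the other two.

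The list of chromatin assembly had the lowest median in conditioned media, -0.63, with 10 of 10 genes below 0. Hells, a chromatin remodeller, stood at 4.87 FPKM with resveratrol, 5.24 FPKM in conditioned media and 13.0 FPKM in control, and Chaf1b, a subunit of the CAF-1 histone chaperone, at 2.89 FPKM with resveratrol, 1.94 FPKM in conditioned media and 5.47 FPKM in control, log2 ratios of -1.17 and -1.14 in conditioned media. Chaf1a, the large CAF-1 subunit, stood at 3.78 FPKM with resveratrol, 6.40 FPKM in conditioned media and 11.3 FPKM in control. Both CAF-1 genes were highest in control, and their lowest library differed, conditioned media for Chaf1b and resveratrol for Chaf1a. Slbp, which binds histone messenger RNA, was highest with resveratrol at 35.3 FPKM with resveratrol, 19.4 FPKM in conditioned media and 23.3 FPKM in control.

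Fork and checkpoint genes had a median of -0.42 in conditioned media, with 13 of 15 below 0. Mms22l, which acts at damaged forks, had the lowest conditioned media ratio of the list, -0.85, at 4.63 FPKM with resveratrol, 3.49 FPKM in conditioned media and 7.12 FPKM in control. Accessory replisome genes had a median of -0.21 in conditioned media, and 8 of 15 lay below 0 when libraries were rescaled over all loci, against 13 as deposited. In that list Top2a, the topoisomerase that separates sister chromosomes in mitosis, stood at 12.5 FPKM with resveratrol, 59.3 FPKM in conditioned media and 47.4 FPKM in control, a log2 ratio of -2.16 for resveratrol over conditioned media.

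In the list of other nucleotide supply genes, 2 relatives of the S phase enzymes had ratios above 0 in each comparison. Rrm2b, the small reductase subunit used outside S phase, stood at 24.6 FPKM with resveratrol, 13.6 FPKM in conditioned media and 10.2 FPKM in control, a log2 ratio of 1.19 for resveratrol over control. Tk2, the mitochondrial thymidine kinase, stood at 11.3 FPKM with resveratrol, 7.53 FPKM in conditioned media and 5.94 FPKM in control, a log2 ratio of 0.82 over control. Their S phase counterparts Rrm2 and Tk1 had -0.70 and -2.06 in that comparison. Nt5e, a surface enzyme that makes adenosine from AMP, was the gene of the 5 lists that met the size rule on the higher side in conditioned media, at 3.03 FPKM with resveratrol, 7.01 FPKM in conditioned media and 2.91 FPKM in control. Dctd, which makes the substrate of thymidylate synthase, stood at 3.13 FPKM with resveratrol, 3.85 FPKM in conditioned media and 8.33 FPKM in control.

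Of the 25 regulators of the G1 to S transition that were found, the authors' deposited table calls 13 lower and 8 higher with resveratrol over conditioned media. Its shares of all tested loci are 29.5% lower and 34.1% higher there, so the higher side lay near the background. Of the 3 libraries, resveratrol was the lowest for 15 regulators, where it was for 37.1% of all loci, and the highest for 6. Among the 25, E2f2 had the lowest conditioned media ratio, -1.16, and stood at 2.96 FPKM with resveratrol, 5.61 FPKM in conditioned media and 13.8 FPKM in control, in contrast to E2f1. E2f8, a repressor of the family, stood at 4.17 FPKM with resveratrol, 8.98 FPKM in conditioned media and 11.6 FPKM in control. Ccnd1, the cyclin that answers growth factors in G1, stood at 9.55 FPKM with resveratrol, 33.0 FPKM in conditioned media and 43.8 FPKM in control, log2 ratios of -1.69 over conditioned media and -2.09 over control for resveratrol. Cdk6, a partner kinase of that cyclin, stood at 3.64 FPKM with resveratrol, 8.59 FPKM in conditioned media and 8.01 FPKM in control. Fbxo5, an inhibitor of the anaphase-promoting complex, stood at 3.90 FPKM with resveratrol, 9.03 FPKM in conditioned media and 10.6 FPKM in control. These 5 genes, named for their large ratios, were lowest with resveratrol. Other genes of the list were highest there, among them, chosen after their values were seen, Tfdp2, a partner of E2F factors, at 7.43 FPKM with resveratrol, 4.85 FPKM in conditioned media and 4.78 FPKM in control, and Cdkn1a, an inhibitor of cyclin-dependent kinases, at 717 FPKM with resveratrol, 575 FPKM in conditioned media and 623 FPKM in control.

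The genes of G2 and mitosis, the later phases of the same cycle, differed from the members in both steps. In conditioned media over control the median was -0.45 for the members and 0.45 for 38 G2/M genes. Of the 38, 37 lay above 0, where 51.3% of all loci lay below it. The authors' deposited table calls 33 of the 38 higher and 0 lower, where it calls 25.8% of all tested loci higher and 29.9% lower. With resveratrol over conditioned media the median was -0.06 for the members and -1.58 for the G2/M genes. All 38 G2/M genes lay below 0, where 47.4% of all loci did. There 1 of 51 members met the size rule on the lower side, and 35 of the 38 G2/M genes did, against 4.97% of all loci. With resveratrol over control the medians were -0.49 for the members and -1.16 for the G2/M genes. On the lower side 6 members and 25 G2/M genes met the rule, against 5.25% of all loci. The members summed to 684 FPKM with resveratrol, 684 FPKM in conditioned media and 922 FPKM in control, and the G2/M genes to 224 FPKM with resveratrol, 838 FPKM in conditioned media and 620 FPKM in control. With 1 library per group the difference between the lists has no test.

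Single genes show the contrast. Ube2c, the ubiquitin-conjugating enzyme of mitotic exit whose promoter is printed above, stood at 5.29 FPKM with resveratrol, 59.9 FPKM in conditioned media and 43.5 FPKM in control. Ccnb1, the mitotic cyclin, stood at 5.98 FPKM with resveratrol, 38.7 FPKM in conditioned media and 26.1 FPKM in control, and Cdk1, its kinase, at 9.03 FPKM with resveratrol, 27.5 FPKM in conditioned media and 24.1 FPKM in control. Ccna2, a cyclin of both S phase and G2, was level in conditioned media and low with resveratrol, at 5.85 FPKM with resveratrol, 40.2 FPKM in conditioned media and 39.2 FPKM in control. Mki67, a proliferation marker, stood at 10.3 FPKM with resveratrol, 18.6 FPKM in conditioned media and 15.8 FPKM in control. Of these 5, each was lowest with resveratrol and highest in conditioned media, Ccna2 by little over control. Of the 51 members, 39 were highest in control, among them Cdc6, Mcm5 and Pcna, and 5 were highest in conditioned media. Gmnn, Dbf4, Orc5 and Rfc4 were, as the G2/M genes named here, lowest with resveratrol and highest in conditioned media. The authors' deposited table calls none of those members higher in conditioned media over control. With resveratrol over conditioned media, Tk1 was the member nearest to the G2/M genes, at -1.57 beside their median of -1.58.

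**Figure D4:**
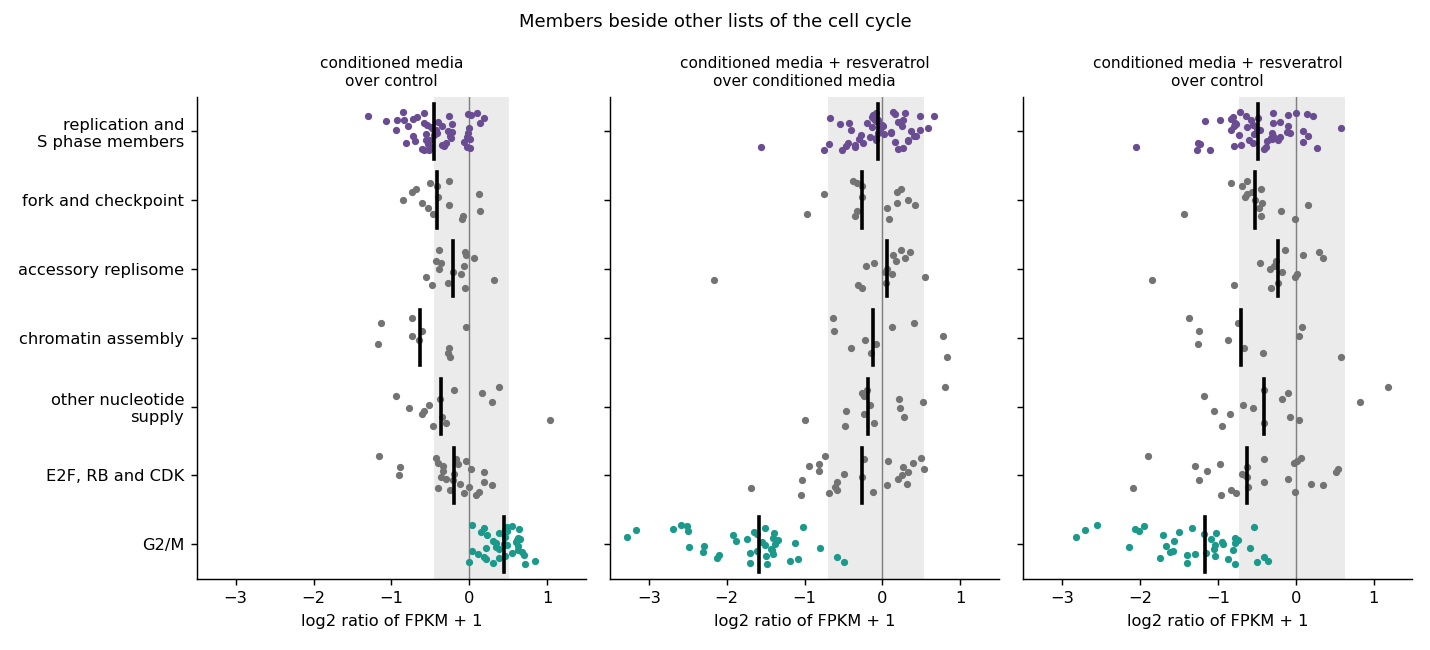
Log2 ratios of FPKM + 1 of the 51 members, the 5 other lists of replication, nucleotide supply and S phase control, and 38 G2/M genes (points) with each list's median (bar), for the 3 comparisons. The grey band spans the 10th to 90th percentile of all loci. The members have medians of -0.45, -0.06 and -0.49 from left to right, and the G2/M genes 0.45, -1.58 and -1.16.

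How libraries were scaled bears on these values. Between 78.4% and 83.0% of a library's summed FPKM lay in loci of 200 bases or less, and rescaling to equal sums over all loci moves the median of all loci to 0.17 for conditioned media over control and 0.18 for resveratrol over control. Under it the members' medians were -0.28 and -0.31, with 39 of 51 below 0 in each, and under equal sums over longer loci they were -0.53 and -0.62. With that first rescaling Mcm5, at -0.89 for conditioned media and -0.98 for resveratrol over control, and Ccne2, at -0.95 for resveratrol over control, no longer met the size rule. A pseudocount of 5 in place of 1 took Cdc6 to -0.66 and Mcm5 to -0.81 in conditioned media over control, and for resveratrol over control it took Mcm5 to -0.87, Fen1 to -0.90, Uhrf1 to -0.96 and Ccne2 to -0.57, which left Tk1 and Rrm1 past the rule. Of the 51 member loci, 15 share their span with another locus and 7 hold a small RNA gene on their strand in GENCODE M21, namely Orc2, Orc5, Mcm7, Pola1, Pold1, Pole and Rpa1.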

How the data were processed

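RNA from 3 cultures of differentiated C2C12 cells was sequenced as 1 library per group. The submitters' processing notes name Cuffdiff 2.2.1.3, Cufflinks 2.2.1.0, TopHat2 2.1.0, Bowtie, Trim Galore 0.4.3.1, FastQC 0.69 and the mm10 genome build. Annotation, strand setting and library scaling are, in the sources used here, not given. One deposited gene table, laid out as Cuffdiff writes it, was used. Its FPKM values, log2 fold changes, test statistic (a score), p-values and q-values were computed by the authors, and how the q-values were adjusted is unknown. With 1 library per group, a call in that table says that these libraries differ. Depth is unknown, so no counting error or limit of detection can be given.

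From the deposited FPKM, log2((FPKM + 1)/(FPKM + 1)) was computed with Python 3.11.15, pandas 2.3.3 and numpy 2.4.6, and figures were drawn with matplotlib 3.10.9. Loci with a mean of 1 FPKM or more over the 3 libraries were kept, and the size rule takes an absolute log2 ratio of 1 or more. A symbol with more than 1 locus was represented by its locus of highest mean FPKM. Every member is given with its values. Ratios are printed for members past the size rule and for the lowest and highest of each role. In other pathway lists, genes were named from up to 4 per comparison with the largest ratio among those called in the authors' table, and among G2/M genes from a similar rule. The members and all gene lists were chosen with earlier results of these data known. Promoter windows came from RefSeq (GRCm38.p6) and small RNA genes from GENCODE M21, both of the same build. The ratio and size rule were run on simulated libraries as a check of the code only. The changes planted there were larger than the size rule, so the check does not show how well smaller differences are found. Alternatives covered the pseudocount, the filter, the scaling, the choice of locus and the size of the rule.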

Additional observations from a re-analysis of the deposited data

How the results depend on the processing

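The 3 medians of the members stayed below 0 under every alternative tried, and no value past the size rule changed sign. In conditioned media over control the median of -0.45 became -0.30 with a pseudocount of 5 and -0.28 with libraries rescaled to equal sums over all loci. That rescaling is the TPM scaling, kept at the mean original sum so that the pseudocount keeps its meaning. The 2 members lower by the size rule became 4 with a pseudocount of 0.1, 0 with a pseudocount of 5, 1 with a mean of 5 FPKM or more, 1 with TPM scaling, 4 with equal sums over loci longer than 200 bases and 14 at a fold of 1.5. For resveratrol over conditioned media the 1 lower member, Tk1, became 0 without members that share a locus span and 4 at a fold of 1.5, where 2 members were higher against 0. For resveratrol over control the median of -0.49 became -0.30 with a pseudocount of 5, -0.38 with a mean of 5 FPKM or more, -0.31 with TPM scaling and -0.62 with equal sums over longer loci. Its 6 lower members became 2 with a pseudocount of 5 and 20 at a fold of 1.5, where 1 was higher against 0. The causes of these shifts beyond the construction of each alternative were not tested. Of 138 named ratios, TPM scaling took 7 below the size rule and turned 2 uncalled ratios near 0, and a pseudocount of 5 took 21 below it. Unknown depth leaves low genes such as Orc1, Cdc6 and Ccne2 with unknown precision. No paired analysis was possible because each group has 1 library and no test was made, and for the same reason no library could be left out.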
